A study of Mus musculus with 6 samples.

Results

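The genes of antigen presentation by the major histocompatibility complex (MHC) were followed in crypt epithelium of the jejunum, a segment of the mouse small intestine. They were chosen by name, as every probe set whose single annotated symbol starts with H2-, the prefix of the mouse MHC, or names another listed gene of the pathway, such as B2m, Cd74 or Tap1. This gave 77 of the 45037 probe sets on the array that are not array controls, standing for 41 of 18193 genes with a symbol of their own. Psme2 had 0 probe sets under a single symbol, and 15 probe sets annotated to several genes with an H2- name among them are not members. The groups were 3 Sox9-deficient mice (KO 1 to KO 3) and 3 wild-type littermate controls (WT 1 to WT 3), all C57BL/6 and 3 months old, and each mouse gave total RNA for 1 biotin-labelled array. Neither the Sox9 allele, nor the cells in which it was inactivated, nor the sex of the mice is given in the labels.

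All values below are log2 intensities from GCRMA, in which a probe set without signal lies near 2 to 3, and differences are KO minus WT in log2 units. A probe set was tested with limma if its mean over all 6 arrays reached 4, which held for 18108 in all and for 52 of the 77 members, with p-values adjusted over all 18108. The other 25 members lay between 1.94 and 4.78 on every array and were not tested. The number of arrays, 3 per group, limits the precision, and an exact two-sided permutation test of 3 against 3 cannot go below p = 0.1. In bulk RNA, fewer cells of a type and less RNA per cell cannot be told apart. Nothing in the labels pairs a KO mouse with a WT mouse.

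Class I molecules consist of a heavy chain and beta-2 microglobulin, stand on nearly all cells and show peptides made in the cytosol to CD8 T cells. Those peptides are cut by the proteasome, whose immune subunits replace the constitutive ones under interferon, carried into the endoplasmic reticulum by the TAP transporter and trimmed there. Class II molecules consist of an alpha and a beta chain, are guided by the invariant chain Cd74, and show peptides from endosomes to CD4 T cells. They are made by dendritic cells, macrophages and B cells, and also by epithelium of the small intestine. Class II transcription needs the coactivator Ciita, which binds no DNA itself and acts through the RFX complex, NF-Y and CREB on a conserved X and Y box.

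The promoters of the class II genes H2-Aa and H2-Eb1 are shown because these genes read lower together in KO, that of H2-K1 because the groups overlapped for this class I gene, and that of H2-T3 because its signal was present or absent by mouse. The sequences come from RefSeq, and 28 of the 41 member genes had a promoter in that table, each running from 250 bases before to 50 bases after a start. Capitals mark 3 kinds of motif, searched on both strands: TGATTGG, the core of the Y box; GNAAC, the core of the X box, where it stands 5 to 40 bases before TGATTGG; and GTTTCAC, from the interferon element of class I promoters. These motifs were picked after the promoters had been read, and the capital CCAATCA of the H2-K1 promoter, after its start, is the Y core read on the reverse strand. A match is a description of the letters and not a site of binding.
H2-Aa promoter (GRCm38.p6, chr17:34287774-34288073, minus strand): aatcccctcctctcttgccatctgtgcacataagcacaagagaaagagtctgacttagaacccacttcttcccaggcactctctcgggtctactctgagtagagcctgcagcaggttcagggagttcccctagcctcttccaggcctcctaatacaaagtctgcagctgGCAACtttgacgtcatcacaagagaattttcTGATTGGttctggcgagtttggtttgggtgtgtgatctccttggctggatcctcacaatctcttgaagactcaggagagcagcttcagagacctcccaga
H2-Eb1 promoter (GRCm38.p6, chr17:34305617-34305916, plus strand): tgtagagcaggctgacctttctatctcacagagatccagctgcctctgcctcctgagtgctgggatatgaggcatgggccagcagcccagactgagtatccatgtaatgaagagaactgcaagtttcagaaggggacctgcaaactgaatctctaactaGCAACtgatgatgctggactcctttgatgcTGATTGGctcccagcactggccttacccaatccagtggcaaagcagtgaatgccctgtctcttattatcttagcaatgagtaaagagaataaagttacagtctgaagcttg
H2-K1 promoter (GRCm38.p6, chr17:34000298-34000597, minus strand): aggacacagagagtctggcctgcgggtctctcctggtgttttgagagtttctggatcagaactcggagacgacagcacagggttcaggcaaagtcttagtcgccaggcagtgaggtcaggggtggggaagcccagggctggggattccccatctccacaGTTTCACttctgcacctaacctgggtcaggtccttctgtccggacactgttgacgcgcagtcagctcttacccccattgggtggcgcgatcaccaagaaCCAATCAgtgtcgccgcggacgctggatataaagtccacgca
H2-T3 promoter (GRCm38.p6, chr17:36190102-36190401, minus strand): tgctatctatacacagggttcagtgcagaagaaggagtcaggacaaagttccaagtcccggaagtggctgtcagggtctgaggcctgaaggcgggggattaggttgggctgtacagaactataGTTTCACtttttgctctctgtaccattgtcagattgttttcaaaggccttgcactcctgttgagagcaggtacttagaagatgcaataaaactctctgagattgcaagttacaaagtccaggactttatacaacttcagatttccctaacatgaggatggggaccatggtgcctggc

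The X core followed by the Y core stood in 5 of 9 class II promoters (H2-Aa, H2-Eb1, H2-Eb2, H2-Oa and H2-Ob) and in 0 of 9 class I promoters. It also stood in 0 of 7 peptide supply promoters, in 1 of 2 regulator promoters (Rfx5) and in 0.974% of all 32851 promoters in the table. In H2-Aa the X core began 81 bases and the Y core 50 bases before the start, and in H2-Eb1 91 and 61 bases. H2-Eb2, H2-Oa and H2-Ob carried the same letters although their probe sets lay near the floor on nearly every array. The Y core alone stood in 6 of 9 class II promoters, 4 of 9 class I promoters and 7.82% of all promoters. Of the other roles, 2 of 7 peptide supply promoters (Psmb9 and Tap1) and 1 of 2 regulator promoters (Rfx5) had it. GTTTCAC stood in 5 of 9 class I promoters, those of H2-D1, H2-K1, H2-M3, H2-Q10 and H2-T3, and in 0 of 9 class II promoters. It stood in 1 of 7 peptide supply promoters (Psmb8), 0 of 2 regulator promoters and 2.5% of all promoters.

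No member passed the test over all probe sets, where 2 of 18108 (0.011%) passed, both lower in KO. At an unadjusted limma p under 0.05 there were 5 of 52 members, all lower in KO, against 1.81% of all tested probe sets in that direction. They were 3 probe sets of H2-Aa, 1 of H2-Ab1 and 1 of Erap1. The count changed with 1 array left out, given here with the share of all tested probe sets in brackets. It was 2 without KO 1 (2.11%) or KO 2 (1.33%), 0 without WT 1 (1.55%) or WT 2 (1.68%), and 8 without KO 3 (2.18%) or WT 3 (1.95%). The same 5 had all KO arrays below all WT arrays, against 4.03% of all tested probe sets, and 0 of 52 tested members had all KO arrays above, against 5.09%. Over the 41 genes, with the brightest probe set of each, the median difference was -0.01, and it was -0.01 over all 18193 genes as well.

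The classical class II genes, the invariant chain and the loading factor H2-DMa read lower in KO on average, with KO 2 lowest and WT 1 and WT 2 highest, and none passed the test. H2-Aa, the alpha chain of the I-A molecule, read 12.2, 10.6 and 12.6 on KO 1 to KO 3, against 13.4, 13.5 and 12.6 on WT 1 to WT 3. The groups did not overlap, although KO 3 (12.58) and WT 3 (12.64) were nearly level. KO averaged 11.8 ± 1.07 and WT 13.2 ± 0.49 (SD, n = 3 each). The difference was -1.41 ± 0.55 (SE), 2.65-fold lower in KO, and missed the adjusted threshold in limma (unadjusted p = 0.0399, adjusted p = 0.999). The difference was -0.80 without KO 2.

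H2-Ab1, the beta chain that pairs with H2-Aa, read 11.5, 9.62 and 12.05 on KO 1 to KO 3, against 12.9, 12.9 and 12.09 on WT 1 to WT 3. Again no KO array reached the lowest WT array, and the margin between KO 3 and WT 3 was small. The difference was -1.58 ± 0.63 (SE; limma adjusted p = 0.999), and -0.87 without KO 2. H2-Eb1, the beta chain of the I-E molecule, read 11.4, 9.50 and 11.7 in KO, against 12.6, 12.4 and 11.2 in WT, so that KO 1 and KO 3 lay above WT 3. Its difference was -1.20 ± 0.66 (SE; limma adjusted p = 0.999), and -0.51 without KO 2.

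Cd74, which fills the class II groove until it is exchanged for peptide, read 13.1, 11.6 and 13.8 in KO, against 14.4, 14.3 and 13.5 in WT. KO 3 stood above WT 3. KO averaged 12.8 ± 1.13 and WT 14.1 ± 0.49 (SD, n = 3 each), and the difference of -1.24 ± 0.57 (SE; limma adjusted p = 0.999) was -0.63 without KO 2. H2-DMa, a chain of the molecule that loads peptide onto class II, read 9.24, 6.75 and 9.44 in KO, against 10.48, 10.48 and 9.005 in WT, and here both KO 1 and KO 3 stood above WT 3. Its difference was -1.51 ± 0.79 (SE; limma adjusted p = 0.999), and -0.65 without KO 2.

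**Figure D1:**
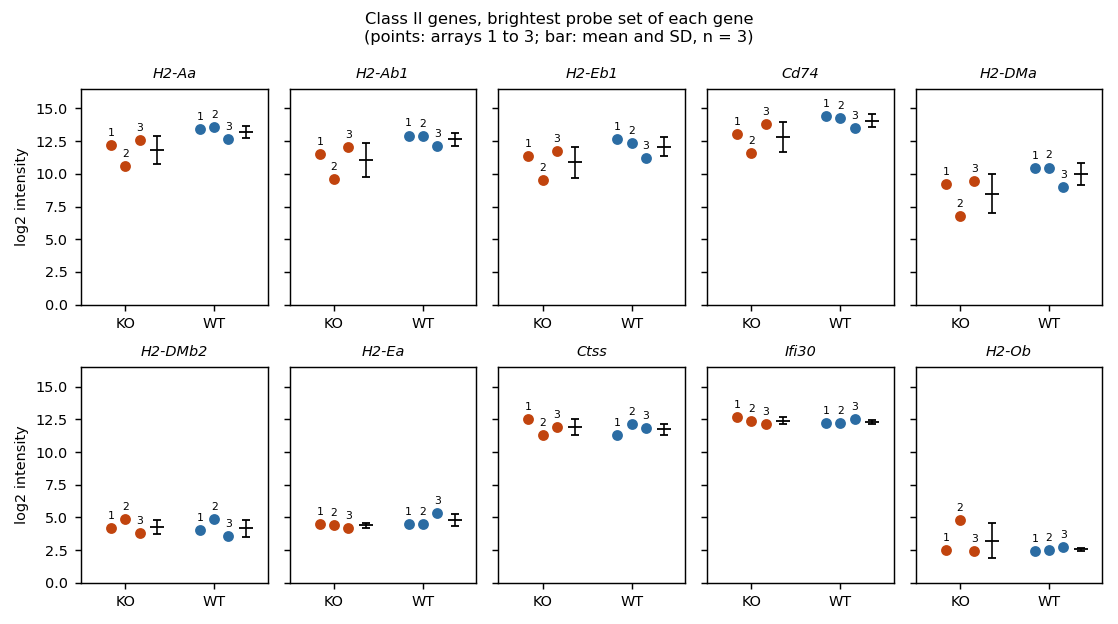
Log2 intensity of 10 class II genes in KO (orange, left) and WT (blue, right) mice; numbers are the mice, and the bar gives the mean and SD of 3 arrays. In the top row KO 2 is the lowest point of every gene, at 6.75 to 11.6, and WT 3 is the lowest WT point of every gene there.

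The dimmer probe sets of these genes had the same mice at their extremes. The H2-Aa probe sets next in brightness read 10.87, 8.92 and 10.90 in KO, against 11.99, 12.40 and 11.21 in WT, and 8.72, 6.87 and 9.25 in KO, against 10.04, 9.97 and 8.58 in WT. Those of H2-Ab1 read 10.02, 7.79 and 10.71 in KO, against 11.57, 11.41 and 10.27 in WT, and 8.86, 6.98 and 9.63 in KO, against 10.65, 10.42 and 9.19 in WT. The second one of H2-DMa read 4.53, 3.92 and 4.47 in KO, against 4.91, 5.90 and 4.51 in WT. KO 2 was lowest in each of them, and WT 1 or WT 2 highest.

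These 5 genes were set side by side after their values had been seen. They have 11 tested probe sets, which share their targets and are not independent, with differences from -2.04 to -0.80. KO 2 was the lowest array on all 11, WT 1 or WT 2 the highest on all 11, and both of those WT arrays stood above every KO array on all 11. WT 3 stood above KO 1 on 7 of the 11 and above KO 3 on 5. Of 22 class II probe sets, 6 carry the array maker's suffix for probes that can bind other sequences too. Among these 6 are the H2-Aa probe sets with an unadjusted limma p under 0.05. A difference of -1 or lower was found for 10 of 16 tested class II probe sets, those of these 5 genes, against 1.17% of all tested probe sets, and for 0 of 19 class I and 0 of 12 peptide supply probe sets. Without KO 2 it was found for 1 of the 16, against 1.76% of all tested probe sets. The step on the dimmest H2-Aa probe set came from the same array, since it read 7.66, 4.83 and 6.86 on KO 1 to KO 3, against 8.66, 9.02 and 7.78 on WT 1 to WT 3.

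The remaining class II members did not show this pattern, and several of them lay near the floor. Ctss, the cathepsin that cuts the invariant chain, read 12.5, 11.3 and 11.9 in KO, against 11.3, 12.1 and 11.8 in WT (difference 0.14, 95% interval -0.74 to 1.03). Ifi30, a thiol reductase of endosomes, stood at 12.1 to 12.7 in KO and 12.2 to 12.5 in WT (difference 0.08). H2-DMb2, a beta chain that pairs with H2-DMa, read 4.15, 4.88 and 3.79 in KO, against 4.03, 4.89 and 3.59 in WT on its brightest probe set (difference 0.11), and 4.07, 4.13 and 3.91 in KO, against 3.99, 4.06 and 4.65 in WT on the next (difference -0.20). These probe sets thus differed in sign, with the groups overlapping on both. Both lay near the floor, so they do not show whether H2-DMb2 departs from H2-DMa. H2-Ea had 1 of its 3 probe sets just above the filter, at 4.20 to 4.53 in KO and 4.49 to 5.30 in WT (difference -0.38); C57BL/6 mice are known for not transcribing this gene. H2-Oa (3.24 to 4.08 on all arrays) and H2-Eb2 (2.49 to 2.68) were near the floor. Over the 12 class II genes, 7 differences were negative and 5 positive, with a median of -0.22.

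H2-Ob, which with H2-Oa forms a modulator of peptide loading known mainly from B cells, rose above the floor in 1 mouse only. It read 4.78 on KO 2, itself under the level of 5 set for off arrays, and 2.40 to 2.72 on the other 5 arrays. The probe set was under the filter and was not tested. B cell markers were also highest on KO 2. Cd79a, part of the B cell receptor, read 6.14, 7.21 and 2.33 on KO 1 to KO 3, against 2.53, 3.38 and 3.86 on WT 1 to WT 3, and Ms4a1, which encodes CD20, read 6.31 on KO 2 and 3.25 to 3.61 elsewhere. Of the 5 B cell markers on the array, 4 were highest on KO 2, and Pax5 was at the floor throughout. The mean level of the 5 ran from 2.98 to 5.78 in KO and from 2.97 to 3.72 in WT, and their part in the H2-Ob value was not tested.

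Most leukocyte markers did not read lower along with class II. The mean log2 level of 7 pan-leukocyte genes was 8.70, 8.10 and 7.84 on KO 1 to KO 3, against 4.49, 7.63 and 7.73 on WT 1 to WT 3. All 7 were lowest on WT 1, one of the arrays where class II stood highest, and all 7 differences were positive (0 of 7 passed in limma over all probe sets, and 0 of 7 at an unadjusted p under 0.05). Ptprc, the leukocyte antigen CD45, read 8.68, 9.53 and 8.82 in KO, against 5.73, 8.50 and 8.67 in WT. The macrophage receptor gene Csf1r read 9.76, 7.12 and 8.36 in KO, against 2.87, 7.58 and 8.07 in WT. KO 2 was its lowest KO array, as for the class II genes above, and also that of Tyrobp, Fcer1g, C1qa, C1qb and Aif1. Among the 7 pan-leukocyte genes, Ptprc, Coro1a and Laptm5 were highest on KO 2. Of 15 dendritic cell and macrophage markers 8 were tested. Among the 6 that lay below 4 on all arrays were the dendritic cell genes Flt3, Xcr1, Zbtb46 and Batf3. The mean level of the 15 was 5.69, 4.60 and 5.02 on KO 1 to KO 3, against 3.85, 4.84 and 4.94 on WT 1 to WT 3, with KO 2 lowest in KO. Of these 15, 11 differences were positive and 4 negative, and 1 had an unadjusted p under 0.05. That was Lyz2, the lysozyme gene of macrophages and a close paralog of the Paneth cell gene Lyz1, which read 12.98, 12.88 and 13.18 in KO, against 14.02, 13.99 and 14.42 in WT. All KO arrays lay below all WT arrays there (difference -1.13 ± 0.20 SE, limma adjusted p = 0.443), and Lyz1 differed by -0.75. Of 12 T cell and intraepithelial lymphocyte genes, the mean level was 5.72 to 5.98 in KO and 4.51 to 6.29 in WT. Epithelial genes were bright everywhere, with a mean level of 14.1 to 14.4 in KO and 14.3 to 14.4 in WT. The list of 6 crypt genes, which holds the Paneth genes Lyz1 and Mmp7, averaged 10.7 to 11.00 in KO and 11.01 to 11.9 in WT. Of its differences 3 were positive and 3 negative, the largest being that of Mmp7 (-4.71). Olfm4 differed by -0.20, Lgr5 by 0.08, Mki67 by 0.10 and Ascl2 by 0.97, with all KO arrays above all WT arrays in Ascl2. Genes of villus enterocytes, the mature cells above the crypts, averaged 14.57 to 14.61 in KO and 13.85 to 14.28 in WT. At an unadjusted limma p under 0.05, 3 of 6 were higher in KO, against 1.81% of all tested probe sets, and 0 of 6 passed. These were Treh (difference 0.77), Apoa4 (0.82) and Alpi (0.95), which encode trehalase, an apolipoprotein and intestinal alkaline phosphatase. The groups overlapped for Alpi, where KO 3 (12.81) lay below WT 3 (12.94). They also overlapped for Apoa1 (0.12), Fabp1 (0.05) and Fabp2 (-0.01) of the same list. The part of leukocytes, of Paneth cells and of villus cells in the class II values was not tested.

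Signal from the Y chromosome moved with class II as well. The Y-linked genes Eif2s3y and Kdm5d read 10.10 and 7.58 on WT 1 and 10.12 and 8.26 on WT 2, and at most 2.95 and 2.36 on KO 1 to KO 3 and WT 3. WT 1 and WT 2 were thus the arrays with Y-linked signal and the 2 highest arrays for class II. Among the arrays without it, KO 1 to KO 3 against WT 3 alone, the differences were -0.84 for H2-Aa, -1.04 for H2-Ab1, -0.35 for H2-Eb1, -0.68 for Cd74 and -0.53 for H2-DMa. With a single WT array the spread in that fit came from the KO arrays alone, WT 3 being assumed to vary like them, so its p-values are not used here. The mean of KO 1 and KO 3 minus WT 3 was -0.24 for H2-Aa, -0.32 for H2-Ab1, 0.34 for H2-Eb1, -0.07 for Cd74 and 0.34 for H2-DMa. Every KO array lacks Y-linked signal, and no WT array without it other than WT 3 exists, so genotype and Y-linked signal are partly confounded, and their part in the class II difference cannot be told apart.

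**Figure D2:**
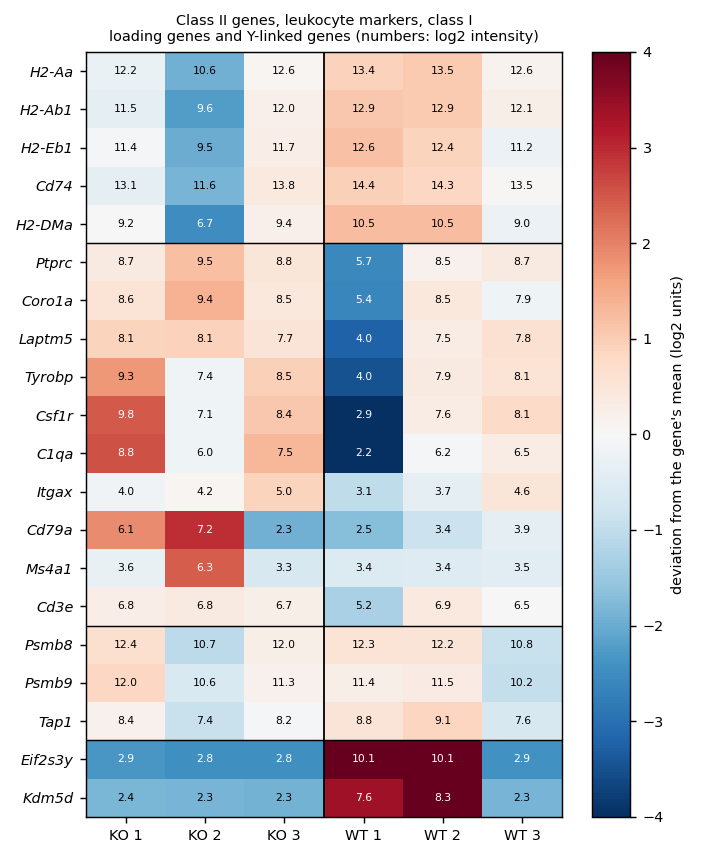
Log2 intensities (numbers) on the 6 arrays, coloured by the deviation from each gene's mean, for 5 class II genes, 10 leukocyte markers, 3 class I loading genes and 2 Y-linked genes. The class II rows are lowest on KO 2 and highest on WT 1 and WT 2, the arrays with Y-linked signal. WT 1 has the lowest values of Ptprc (5.73) and Csf1r (2.87). Among the KO arrays, KO 2 is lowest for Csf1r (7.12) and highest for Ptprc (9.53).

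The class I genes that make up most of the signal differed little between the groups. H2-K1 and H2-D1 encode the classical heavy chains of C57BL/6. H2-K1 read 13.6, 13.2 and 13.7 in KO, against 13.5, 13.7 and 13.3 in WT, with means of 13.5 ± 0.26 in KO mice and 13.5 ± 0.19 in WT mice (SD, n = 3 each). The difference of -0.01 had a 95% interval from -0.51 to 0.49 in limma. H2-D1 read 13.4, 13.0 and 13.5 in KO, against 13.4, 13.6 and 13.0 in WT (difference -0.03, 95% interval -0.61 to 0.56). B2m, the shared light chain, read 14.9, 14.49 and 14.9 in KO, against 14.54, 14.7 and 14.6 in WT (difference 0.16, 95% interval -0.31 to 0.63), and its other probe set differed by 0.11, at 14.79, 14.26 and 14.71 in KO, against 14.33, 14.65 and 14.43 in WT.

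Values of single class I genes are uncertain where copies resemble each other. Of 28 class I probe sets 13 carry the array maker's suffix for probes that can bind other sequences too, among them all 4 of H2-K1. The nonclassical gene H2-Q2 stood at 12.4 to 13.0 in KO and 12.2 to 13.4 in WT (difference -0.01), and H2-T18 at 8.32 to 8.83 in KO and 8.20 to 8.93 in WT (difference -0.01). H2-Q10, which encodes a secreted class I molecule best known from liver, read 7.13, 6.16 and 5.24 in KO, against 6.78, 6.10 and 5.31 in WT, and H2-M3, which presents formylated peptides, read 4.99, 4.41 and 3.85 in KO, against 5.19, 5.22 and 4.28 in WT (difference -0.48). H2-D4, H2-M10.1, H2-M9, H2-Q5 and H2-T24 lay between 2.07 and 3.18 on all arrays. Over the 14 class I genes, 10 differences were negative and 4 positive, with a median of -0.01.

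H2-T3 encodes the thymus leukaemia antigen, a class I molecule of intestinal epithelium that binds CD8 alpha chains. On its dimmer probe set it was near the floor in 1 mouse of each group. That probe set read 2.16, 10.6 and 10.99 on KO 1 to KO 3, against 2.03, 10.3 and 9.78 on WT 1 to WT 3. KO 1 and WT 1 were at the floor, and the other 4 arrays lay at least 7.62 log2 units higher. The difference between the groups was 0.55 ± 3.06 (SE; limma adjusted p = 0.999), a spread in which a difference between groups could not be measured. The brighter H2-T3 probe set, which has the suffix for unspecific probes, also had KO 1 and WT 1 lowest but in a narrower range, at 7.43, 9.29 and 9.51 in KO, against 7.91, 9.45 and 8.65 in WT.

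H2-Bl, a transcribed pseudogene in RefSeq that lies in the same T region, split the mice the same way. It read 8.50, 13.0 and 13.7 on KO 1 to KO 3, against 7.96, 12.7 and 11.9 on WT 1 to WT 3. Across the array 260 of 45037 probe sets (0.577%) had an on or off step, taken as a gap of at least 2 log2 units between neighbouring arrays with every array under it below 5. Of the 77 members 3 had one, in H2-T3, H2-Ob and H2-Aa. Most steps in the table, 199 of 260, set 1 array apart from the other 5, and 5 set KO 1 and WT 1 apart below the rest. Those 5 were H2-T3, the metalloprotease gene Adamdec1, a probe set without a symbol and 2 probe sets annotated to several genes, each with an H2- name among them. The H2-T3 gap ranked 20th of all probe sets. Mouse strains differ in which T region genes they carry, and the labels give C57BL/6 for all 6 mice; whether KO 1 and WT 1 differ in that region was not tested.

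**Figure D3:**
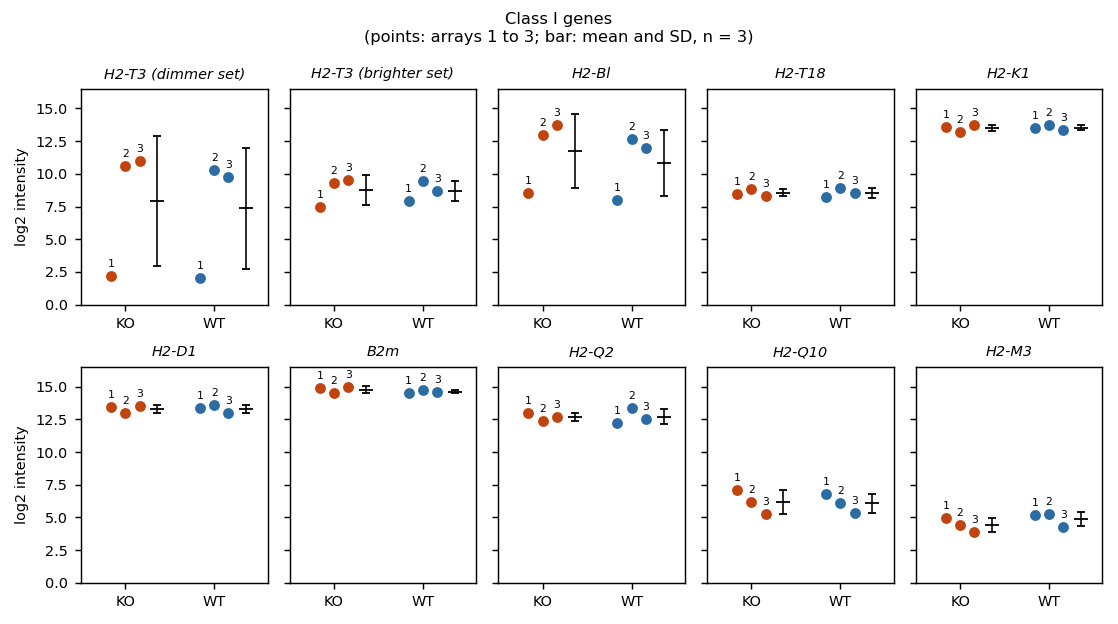
Log2 intensity of class I genes in KO (orange, left) and WT (blue, right) mice; numbers are the mice, and the bar gives the mean and SD of 3 arrays. KO 1 (2.16) and WT 1 (2.03) are at the floor on the dimmer H2-T3 probe set, and the same mice are lowest for H2-Bl. H2-K1, H2-D1 and B2m lie between 13.0 and 14.9 on all arrays.

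Genes that supply and load peptides for class I varied between mice in both groups. The immunoproteasome subunit gene Psmb8 read 12.4, 10.7 and 12.0 in KO, against 12.3, 12.2 and 10.8 in WT, and Psmb9 12.0, 10.6 and 11.3 in KO, against 11.4, 11.5 and 10.2 in WT. Tap1, a chain of the peptide transporter, read 8.44, 7.38 and 8.24 in KO, against 8.79, 9.12 and 7.64 in WT. In all of these KO 2 and WT 3 were the lowest arrays of their groups, and over the 12 tested probe sets of this role 11 were lowest on KO 2 or WT 3. The differences were -0.11 for Psmb8, 0.25 for Psmb9 and -0.50 for Tap1, and none passed in limma (adjusted p = 0.999 each). That of Tap1 was -0.18 without KO 2, -0.20 without WT 2 and -0.93 without WT 3, and it turned positive (0.38) over the arrays without Y-linked signal.

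Among the other genes of this role, Erap1, the aminopeptidase that trims peptides in the endoplasmic reticulum, had all KO arrays below all WT arrays in 1 probe set of its pair. It read 9.11, 9.30 and 9.71 in KO, against 9.92, 9.92 and 9.80 in WT (difference -0.50 ± 0.21 SE, limma adjusted p = 0.999), while in the other the groups overlapped (difference -0.19). Psmb10 (-0.16), Psme1 of the proteasome activator (-0.02), Tap2 (-0.15) and the tapasin relative Tapbpl (-0.16) overlapped too. The tapasin gene Tapbp read 12.11, 11.67 and 12.27 in KO, against 11.83, 12.06 and 11.91 in WT on its brighter probe set (difference 0.08). The dimmer one read 6.05, 6.47 and 7.76 in KO, against 6.53, 6.59 and 4.96 in WT, with KO 3 highest and WT 3 lowest (difference 0.73). This difference was 0.20 without WT 3, 0.23 without KO 3 and 1.09 without KO 1. Over the 9 genes the median difference was -0.15, and it was 0.38 over the 4 arrays without Y-linked signal.

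The transcription factors of the pathway were near the floor for the coactivators and measurable for the RFX complex. All 3 probe sets of Ciita lay under the filter, at 2.33 to 2.75 in KO and 2.45 to 3.00 in WT. On 1 of them the KO arrays (2.44, 2.33 and 2.39) lay below the WT arrays (2.97, 3.00 and 2.57), with WT 1 and WT 2 highest, all of them at the level of probe sets without signal. Nlrc5, the class I counterpart of Ciita, read 3.03, 3.01 and 2.98 in KO, against 3.31, 3.18 and 3.02 in WT and was not tested either. The RFX complex genes were measured. Rfx5 read 6.74, 7.27 and 6.94 in KO, against 6.62, 6.96 and 7.01 in WT (difference 0.12). Rfxank read 7.38, 7.23 and 7.18 in KO, against 7.20, 6.998 and 6.79 in WT on its brightest probe set (difference 0.27). KO 3 and WT 1 were close to level in Rfxank, and the groups overlapped for these probe sets. A dimmer Rfxank probe set under the filter read 3.20, 3.79 and 3.73 in KO, against 2.83, 3.19 and 2.30 in WT, with all KO arrays above all WT arrays by a small margin. Rfxap differed by 0.01 on its brighter probe set and by 0.11 on the other, which read 6.64, 6.24 and 5.85 in KO, against 6.02, 6.01 and 6.36 in WT, and 0 of 4 tested regulator probe sets passed.

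**Figure D4:**
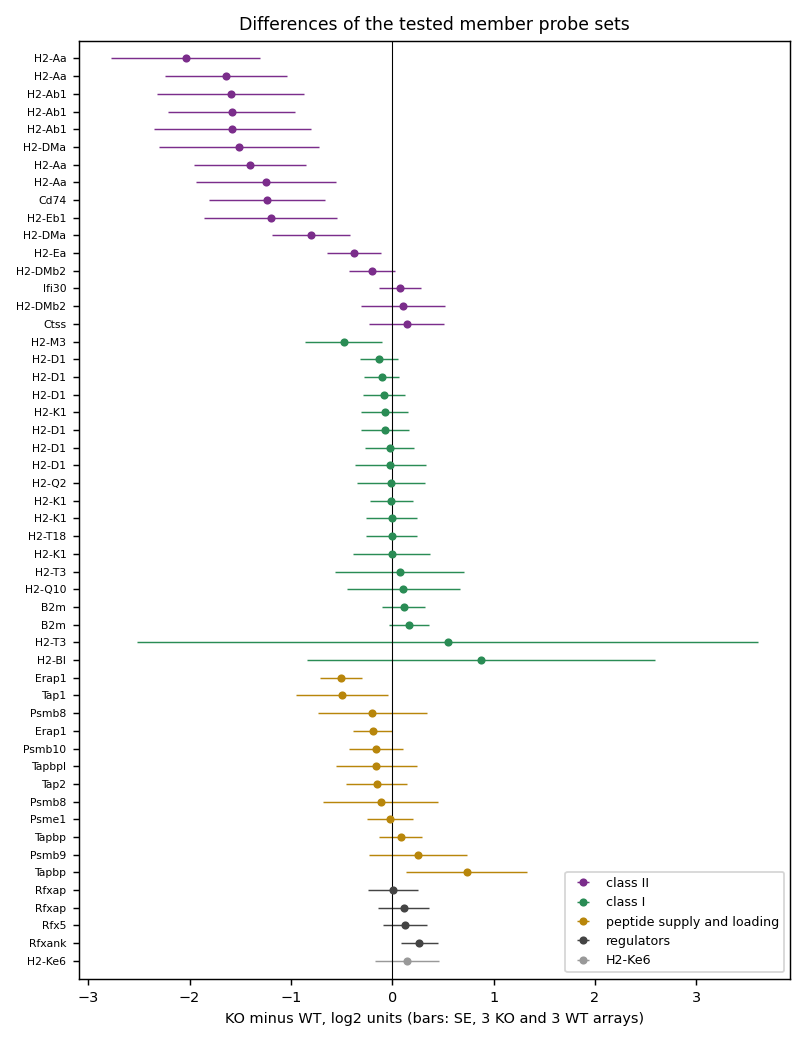
KO minus WT difference in log2 units, with its SE from limma, for the 52 tested member probe sets grouped by role. The 11 probe sets of H2-Aa, H2-Ab1, H2-Eb1, Cd74 and H2-DMa lie between -2.04 and -0.80, and the long bars of H2-T3 and H2-Bl come from the mice in which these genes were low.

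Other genes of the pathway, taken from a list, did not pass either. Of 29 on the array 25 were tested and 0 passed in either direction in limma, with 0 at an unadjusted p under 0.05, 13 positive and 16 negative differences and a median of -0.02. Irf1, an interferon-induced activator of class I and Ciita transcription, read 11.1, 10.99 and 11.3 in KO, against 10.95, 11.2 and 10.8 in WT. The interferon gamma receptor gene Ifngr1 stood at 9.55 to 9.58 in KO and 9.56 to 9.65 in WT. The NF-Y genes Nfya, Nfyb and Nfyc differed by 0.02, 0.07 and 0.03. Ctsl, a cathepsin of the class II route, differed by -0.45, and the constitutive proteasome genes Psmb5, Psmb6 and Psmb7, which the immune subunits replace, by 0.11, 0.02 and 0.10.

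H2-Ke6 was found by its prefix although it encodes a steroid dehydrogenase and no MHC molecule. It read 9.40, 8.32 and 8.39 in KO, against 8.66, 8.51 and 8.51 in WT, so that KO 1 alone stood apart. As a check of the labels, 1 of the 3 Sox9 probe sets lay between 2.42 and 2.75 in KO and between 5.84 and 7.61 in WT. The brightest Sox9 probe set read 5.33 to 6.34 in KO and 2.68 to 6.23 in WT, and where the probe sets lie relative to the deleted part is not stated in the labels.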

How the data were processed

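Total RNA of jejunal crypts was labelled with biotin and hybridised to Affymetrix arrays, per the labels' protocols. The deposited values are log2 intensities made with GCRMA, per the submitters' processing notes, which also name limma. Neither gives a version. GCRMA corrects background by probe sequence, so that a probe set crossing the floor shows as a large step. The table holds 45101 probe sets, of which 64 array controls were left out, and 0 columns of other samples. Of the rest, 34945 had 1 symbol, 932 several and 9160 none. All 77 member probe sets matched a RefSeq gene (GRCm38.p6) by gene identifier, and 0 symbols changed.

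Under R 4.3.3, limma 3.58.1 was fitted to probe sets averaging 4 or more (lmFit and eBayes, KO minus WT, two-sided, 4 residual and 2.59 prior degrees of freedom), with Benjamini-Hochberg adjustment over all 18108 and a threshold of 0.05. The p-values describe the spread between these 6 mice. The fit was tested on simulated data. Members and lists were chosen with earlier results of these data known. Every member is accounted for; values on each array are given for central genes, members with a step, the 10 of smallest p in each direction and genes whose probe sets differed in sign by over 0.2 in all. Gene medians use the brightest probe set. Background correction could not be varied, since GCRMA values alone were used. Same-numbered KO and WT arrays did not deviate together (correlations -0.05, -0.29 and 0.03).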

Additional observations from a re-analysis of the deposited data

How the results depend on the processing

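The count of members past the threshold was 0 under these alternatives: the replicate block, no filter and a stricter filter at 6, median centring and quantile normalization, array weights, a robust prior with trend, a term for Y-linked signal and each array left out. A fit on the 4 arrays without Y-linked signal, chosen after seeing the data, has 1 WT array, takes its spread from the KO arrays and is given for its differences. Over all probe sets the count past the threshold was 2 in the main fit. It was 0 with the replicate block, 0 with no filter, 1 with the filter at 6, 4 with quantile normalization and 4 with median centring. With array weights it was 11, and with the term for Y-linked signal 0. With 1 array left out it ran from 0 to 16 (16 without WT 3, 1 without KO 2, 0 without WT 1 and 0 without WT 2). The causes were not tested. The replicate numbers are not a pairing in the labels, and the replicate block changed no other call. Members with a step numbered 1, H2-T3, with a gap of 3.

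The class I median (-0.01) was 0.0988 with the Y-linked term and 0.0621 over the arrays without Y-linked signal (-0.0382 to 0.0940 with 1 array left out). The peptide supply median (-0.15) was 0.39 with the Y-linked term and 0.38 over the arrays without Y-linked signal (-0.42 to 0.0567 with 1 array left out). The regulator median (0.01) was -0.0398 with array weights, 0.0602 averaging the probe sets of each gene and -0.0429 to 0.104 with 1 array left out. The class II median (-0.22) ran from -0.32 to -0.15 with 1 array left out and was -0.10 averaging the probe sets of each gene. The next counts, with 1 array left out, were chosen after seeing the data. Class II probe sets with a difference of -1 or lower numbered from 1 to 11, and members lower at an unadjusted p under 0.05 from 0 to 8. Members with all KO below all WT numbered from 5 to 19 (19 without WT 3). The share of all tested probe sets in that order was 4.03% on all arrays, 6.48% without KO 2 and 8.60% without WT 3. It rose with each array left out, since fewer arrays separate more easily, so part of the rise in members is not particular to them. The replicate block, the changed filters and the robust prior with trend leave each difference as it is, so no sign could turn there. The Y-linked term and the fit without Y-linked arrays gave differences close to each other. The tally that follows includes these values, which are not separate checks, and is no measure of robustness. Of 31 named probe sets under these alternatives, 420 of 462 values kept their direction.

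The other 42 changed sign. No member passed the test, so the values that kept their direction had no more test support than these. With array weights Psmb9 (-0.11), H2-Ke6 (-0.15) and the dimmer Rfxap probe set (-0.0170) turned. With the Y-linked term H2-K1 was 0.19, H2-D1 0.32, Tap1 0.39, Psmb8 0.85, H2-T3 -1.60, Rfx5 -0.0176, H2-Bl -0.0678 and Rfxap -0.11. Over the arrays without Y-linked signal they were 0.19, 0.31, 0.38, 0.85, -1.87, -0.0292, -0.22 and -0.12 in the same order. With 1 array left out, H2-K1 ran from -0.12 to 0.13, H2-D1 from -0.20 to 0.14, H2-Ob, which was not tested, from -0.11 to 1.08, H2-T3 from -2.12 to 3.42, H2-Bl from -0.57 to 2.49, Psmb8 from -0.59 to 0.38, Psmb9 from -0.16 to 0.62, Tapbp from -0.0447 to 0.26, Rfx5 from -0.0216 to 0.24, Rfxap from -0.0879 to 0.31, H2-Ke6 from -0.20 to 0.34 and H2-DMb2 from -0.20 to 0.47 on 1 probe set and from -0.32 to 0.0101 on another. The 5 lower class II genes kept their sign with each array left out, H2-Aa between -1.80 and -0.80 and Cd74 between -1.74 and -0.63. Signal near the floor limits Ciita, Nlrc5, H2-Ea and H2-DMb2, for which background and expression cannot be told apart.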

Other observations

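Among the 15 probe sets annotated to several genes, an H2- name among them, 2 showed the class II pattern on each array. One read 5.79, 3.93 and 6.96 on KO 1 to KO 3, against 8.51, 8.86 and 6.21 on WT 1 to WT 3. The other read 5.53, 5.14 and 7.61 on KO 1 to KO 3, against 9.10, 9.22 and 6.395 on WT 1 to WT 3. Their differences, -2.30 and -2.14, were larger than those of all 52 tested members, and neither passed in limma (adjusted p = 0.999 each).

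Of 4 plasma cell genes on the array 2 were tested, Jchain and Mzb1, and both varied by mouse. Jchain, the joining chain of secreted IgA, read 14.0, 11.5 and 10.2 on KO 1 to KO 3, against 6.33, 10.7 and 11.07 on WT 1 to WT 3, and Mzb1, a chaperone of antibody-secreting cells, read 7.98, 4.69 and 4.07 on KO 1 to KO 3, against 3.02, 3.55 and 3.94 on WT 1 to WT 3. The lowest array of both was WT 1. Tnfrsf17 and Irf4 lay below 4 on all arrays. Irf4 went the other way, at 2.82, 2.81 and 2.45 on KO 1 to KO 3, against 3.07, 2.85 and 2.82 on WT 1 to WT 3 (difference -0.22).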
